A study of Homo sapiens with 23 samples.

Results

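Interferon response genes are transcribed when a cell detects foreign nucleic acid or receives an interferon signal. The 46 genes described here were taken by symbol from a list of such genes, and all 46 were found among the 61217 genes of each of the 6 comparisons. RNA was sequenced after polyA enrichment in a pair of established cervical squamous carcinoma lines, CaSki (HPV-positive, from a metastasis) and C-33A (HPV-negative). In each line, cells that received 100 nM of a mimic of miR-124-3p, of miR-23b-3p or of miR-218-5p were compared with cells of the same line that received 100 nM of the negative control n#1. The 23 samples form 8 groups of 3, except C-33A with miR-124-3p, which has 2. Both the mimic cells and the control cells were transfected, so an effect of transfection that they share cannot be seen in these comparisons. Nothing in the labels tells whether replicate samples were separate cultures, so the p-values cover only the spread of these samples, and that spread may be technical. The values used are those of the authors' deposited table of each comparison, a log2 fold change with its test and an average level, and values per sample and sequencing depth are not analysed here.

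Double-stranded RNA in the cytosol is recognised by RIG-I-like helicases (RIGI, IFIH1 and DHX58), which relay through MAVS to the transcription factors that switch on interferon genes. Secreted interferon then acts through its receptors and the JAK kinases to activate a complex that holds STAT2 and IRF9 and binds the interferon-stimulated response element (ISRE) of the genes described here. Synthetic RNA duplexes such as microRNA mimics can be ligands of these sensors, which is why the level of the response under each mimic is of interest. The products act at several steps of infection: OAS enzymes and EIF2AK2 (PKR) stop translation or degrade RNA, IFIT proteins bind the ends of foreign RNA, IFITM proteins and BST2 act at membranes, and ISG15 is attached to other proteins.

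The mature microRNAs that the mimics copy act by pairing of their seed, bases 2 to 8, with messenger RNA. The sequences of miR-23b-3p and miR-218-5p are shown because sites for them in the members are described next (RefSeq, GRCh38.p14). Capitals mark the seed, and the 2 seeds differ. The gene of miR-23b-3p holds the mature sequence at chr9:95085265-95085287 on the plus strand. miR-218-5p is made from 2 loci, chr4:20528299-20528319 on the plus strand and chr5:168768211-168768231 on the minus strand.
miR-23b-3p: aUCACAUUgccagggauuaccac
miR-218-5p: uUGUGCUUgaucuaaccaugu

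Sites were matches to seed positions 2 to 8 in the 3' UTR of each gene's longest coding transcript (GENCODE release 29, GRCh38), and in an 8mer an A follows the match. All 46 members had a 3' UTR. A miR-23b-3p site was found in 8 members (17.4%), against 18.1% of 18997 genes, and a miR-218-5p site in 6 members, against 13.7%. Sites were thus about as frequent in members as in genes at large. The 4 members with an 8mer for miR-23b-3p were IRF1 and 3 of the 4 IFIT genes, IFIT1, IFIT2 and IFIT5. No IFIT gene held a miR-218-5p site, and the 8mers for that microRNA were in IRF1, RIGI and DDX60. The IFIT sites and the DDX60 site are printed because these genes had low fold changes in the results below, and the capitals mark the match, read along the transcript. They lie at chr10:89405179-89405185 (IFIT1), chr10:89307936-89307942 (IFIT2) and chr10:89419659-89419665 (IFIT5) on the plus strand and at chr4:168216322-168216328 (DDX60) on the minus strand.
IFIT1, site of miR-23b-3p: aattttaattcAATGTGAaagg
IFIT2, site of miR-23b-3p: gtattctacacAATGTGAattc
IFIT5, site of miR-23b-3p: gctttttttttAATGTGAaatt
DDX60, site of miR-218-5p: agtgactggaaAAGCACAaaga

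An ISRE-like motif, GAAA, any 2 bases and GAAA on either strand with overlapping matches counted, was searched in the promoters, 250 bases before to 50 bases after each start (RefSeq, GRCh38.p14). Of the 46 members, 37 had a promoter in the RefSeq table, and 23 of these 37 (62.2%) held the motif, against 4.38% of 27305 genes and 3.57% of 35116 promoters. The members were chosen by function, and this motif goes with that function. The promoters of IFIT1 and BST2, with 2 motif matches each in capitals, and of TRIM25, with no match, are printed as examples of windows with and without the motif, picked after their values in CaSki with miR-23b-3p were seen. They lie at chr10:89392373-89392672 on the plus strand (IFIT1), chr19:17405581-17405880 on the minus strand (BST2) and chr17:56914000-56914299 on the minus strand (TRIM25).
IFIT1 promoter: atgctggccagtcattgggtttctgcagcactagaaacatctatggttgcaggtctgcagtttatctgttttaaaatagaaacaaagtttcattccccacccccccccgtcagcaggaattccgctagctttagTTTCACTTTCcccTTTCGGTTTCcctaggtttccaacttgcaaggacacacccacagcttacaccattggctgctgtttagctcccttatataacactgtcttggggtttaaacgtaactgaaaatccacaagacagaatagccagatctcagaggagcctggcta
BST2 promoter: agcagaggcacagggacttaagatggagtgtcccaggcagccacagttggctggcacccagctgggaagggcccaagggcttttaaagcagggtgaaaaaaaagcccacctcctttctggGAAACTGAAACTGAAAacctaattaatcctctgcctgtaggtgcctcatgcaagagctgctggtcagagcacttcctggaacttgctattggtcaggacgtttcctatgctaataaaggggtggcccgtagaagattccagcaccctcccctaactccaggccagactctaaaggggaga
TRIM25 promoter: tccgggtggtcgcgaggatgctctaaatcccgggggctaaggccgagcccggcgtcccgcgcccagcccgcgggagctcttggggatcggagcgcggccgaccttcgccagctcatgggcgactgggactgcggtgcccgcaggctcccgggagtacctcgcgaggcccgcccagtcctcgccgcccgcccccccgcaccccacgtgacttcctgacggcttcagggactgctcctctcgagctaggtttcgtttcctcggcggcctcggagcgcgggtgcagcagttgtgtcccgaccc
In CaSki with miR-23b-3p, members with the motif lay on both sides of 0, and so did members without it. Of 21 measured members with the motif 6 lay above 0 and 15 below (median -0.17), and of 10 without it 6 lay above and 4 below (median 0.12). The 15 include IFI27, which cannot be read in CaSki, as described below. OAS3 (0.55) and EIF2AK2 (0.27) held the motif and lay above 0, and IFI35 (-0.42) and IRF1 (-0.21) held none and lay below, in the authors' deposited table. A motif match is a description of the letters, and the lack of one says only that these letters are not in this window.

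The lines differed in which members could be followed. A gene was taken as measured in a comparison when its average level over the mimic and control libraries was a log2 CPM (a read count scaled to library size) of 0 or more. In the authors' deposited tables, 35 members were measured in all 3 CaSki comparisons and 22 in all 3 C-33A comparisons, of which 21 were measured in both lines. The 14 measured throughout in CaSki only were the membrane effectors BST2, IFITM1, IFITM2 and IFITM3, the RNA sensors IFIH1 and DHX58, IFIT3, OAS2, MX1, ISG20, SAMD9, SAMD9L, TRIM22 and IFI27. The nucleotide kinase CMPK2 was the 1 member measured throughout in C-33A only. The 10 others were RIGI, IRF9, IRF7, OAS1, OASL, MX2, RSAD2, XAF1, IFI44 and IFI44L. Of all 61217 genes, 15332 to 15486 were measured in a single CaSki comparison and 15222 to 15466 in a single C-33A comparison. For the same mimic, 12902 to 12970 genes were measured in both lines and could be tested.

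Of the 37 members whose median level over the 3 tables reached this minimum in a line, 30 were listed higher in CaSki and 7 higher in C-33A, and 12 were higher in CaSki by over 3 log2 units. IFI27 is among these 12, and its level in CaSki rests on the control cells, as described below. SAMD9, an antiviral restriction factor, had a median average log2 CPM of 8.89 in CaSki and -2.09 in C-33A in the authors' deposited tables. BST2, also called tetherin, which holds budding virions at the cell surface, had 6.72 in CaSki and -3.14 in C-33A in the authors' deposited tables. IFITM3, which blocks fusion of viruses in endosomes, had 5.61 in CaSki and -1.65 in C-33A in the authors' deposited tables. These genes were thus near or under the lowest usable level in C-33A. Others were listed at like levels, such as EIF2AK2 at 7.84 in CaSki and 7.65 in C-33A, TRIM25 at 6.04 in CaSki and 6.01 in C-33A, and ADAR at 7.96 in CaSki and 8.24 in C-33A, in the authors' deposited tables. ISG15, a ubiquitin-like protein, was listed lower in CaSki, with 4.72 in CaSki and 6.69 in C-33A in the authors' deposited tables. The tables were normalized separately and give no spread for a level, so these are values side by side with no test. How many of all genes were listed higher in CaSki was not counted.

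**Figure D1:**
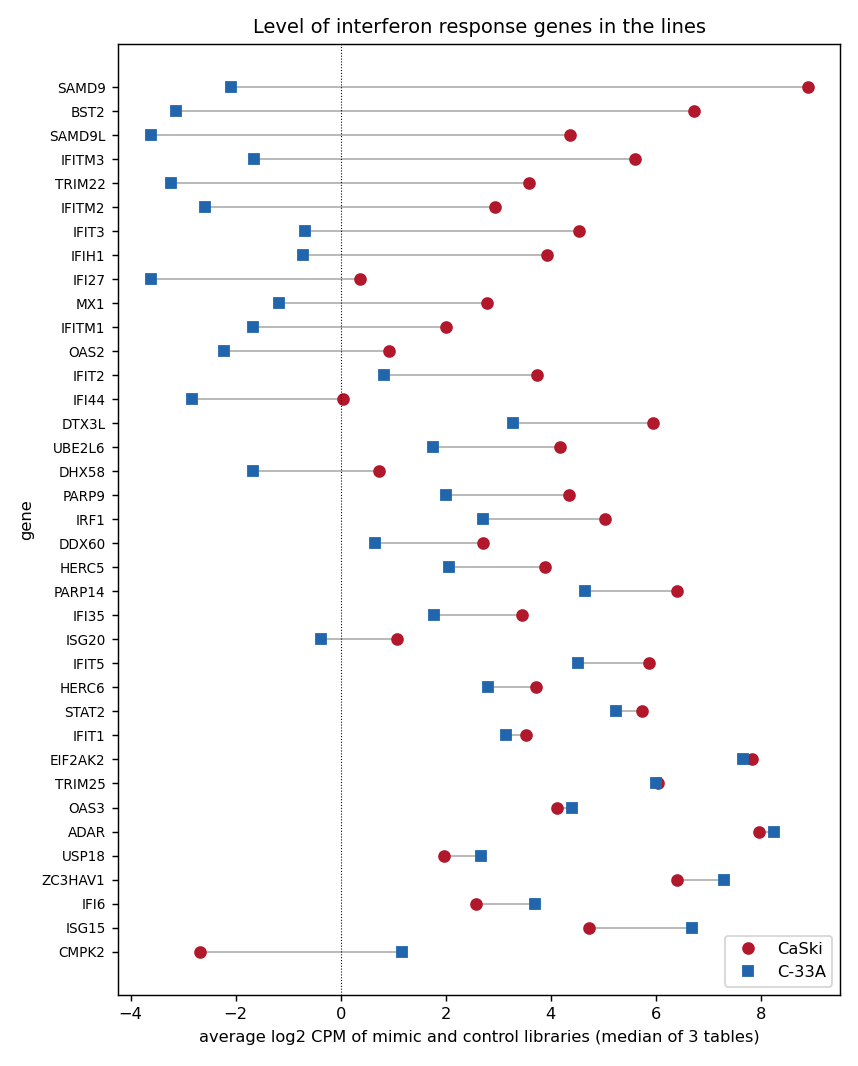
Average log2 CPM of 37 interferon response genes in CaSki (red circles) and C-33A (blue squares), each the median over the 3 tables of the line, with the dotted line at the minimum of 0. SAMD9, BST2 and IFITM3 lie far to the right in CaSki, while ISG15 and CMPK2 lie further right in C-33A.

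The marker genes of the tissue differed as well. In the authors' deposited tables, 9 of 9 epithelial markers were measured in CaSki, such as KRT5 with an average log2 CPM of 12.1 and CDH1 with 7.85 beside miR-124-3p, and in C-33A KRT8 (0.63) and KRT18 (0.65) alone reached the minimum beside miR-124-3p. EPCAM stood at -0.59 and CDH1 at -3.05 in that C-33A table, per the authors' deposited table. Of 5 leukocyte markers PTPRC (2.52) alone was measured there, and of 4 fibroblast markers COL1A2 (2.93) alone, per the authors' deposited table. Of 3 endothelial markers, 0 were measured there. The label of C-33A as squamous carcinoma is thus not borne out by most of its epithelial markers.

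IFI27 and IRF7 cannot be read in CaSki. IFI27, a mitochondrial protein strongly induced by interferon, is listed with log2 fold changes of -9.41, -8.23 and -9.45 under miR-124-3p, under miR-23b-3p and under miR-218-5p in the authors' deposited tables, with p-values of 0.247, 0.0707 and 0.242. IRF7, the transcription factor that amplifies interferon production, is listed at -8.93, -7.75 and -8.97 in the authors' deposited tables and was measured with miR-23b-3p alone. The level of IFI27 in CaSki control cells, computed from the average and fold change, was 2.52 to 3.07 CPM. With its fold changes, IFI27 reached the minimum level through the control cells alone. The SE was 4.55 for IFI27 and 4.34 for IRF7 with miR-23b-3p, and neither gene passed the test. They were not alone: 213, 219 and 212 measured genes stood under -5 in the 3 CaSki tables and 0 in the C-33A tables, none of them called, RPS18, TUBB and YWHAE among them, which cells in general use. Medians over the members are therefore also given without these genes.

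Few members changed in any comparison. A gene was called risen or fallen at a deposited false discovery rate (FDR) under 0.05, the Benjamini-Hochberg adjusted p of edgeR's F test over all 61217 genes. In C-33A, 0 members were called with miR-124-3p, with miR-23b-3p and with miR-218-5p, against 0.162, 0.0474 and 0.0751% of all genes. In CaSki, 1 member was called with miR-124-3p (2.17% of 46, against 0.305% of all genes), 4 with miR-23b-3p (8.70% of 46, against 2.4%) and 0 with miR-218-5p (against 0.0245%). Counting measured genes alone, the share called was 10.5% of 38 members in CaSki with miR-23b-3p, against 9.09% of 15476 genes, and 2.78% of 36 members with miR-124-3p, against 1.2% of 15486 genes. The share with miR-23b-3p was thus close to that of measured genes at large. With p-values adjusted over measured genes alone, 9 of 38 members were called with miR-23b-3p (23.7%, against 16.4%) and 1 of 36 with miR-124-3p (2.78%, against 2.42%). The comparisons of a line share their control libraries, so they are not independent of each other.

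**Figure D2:**
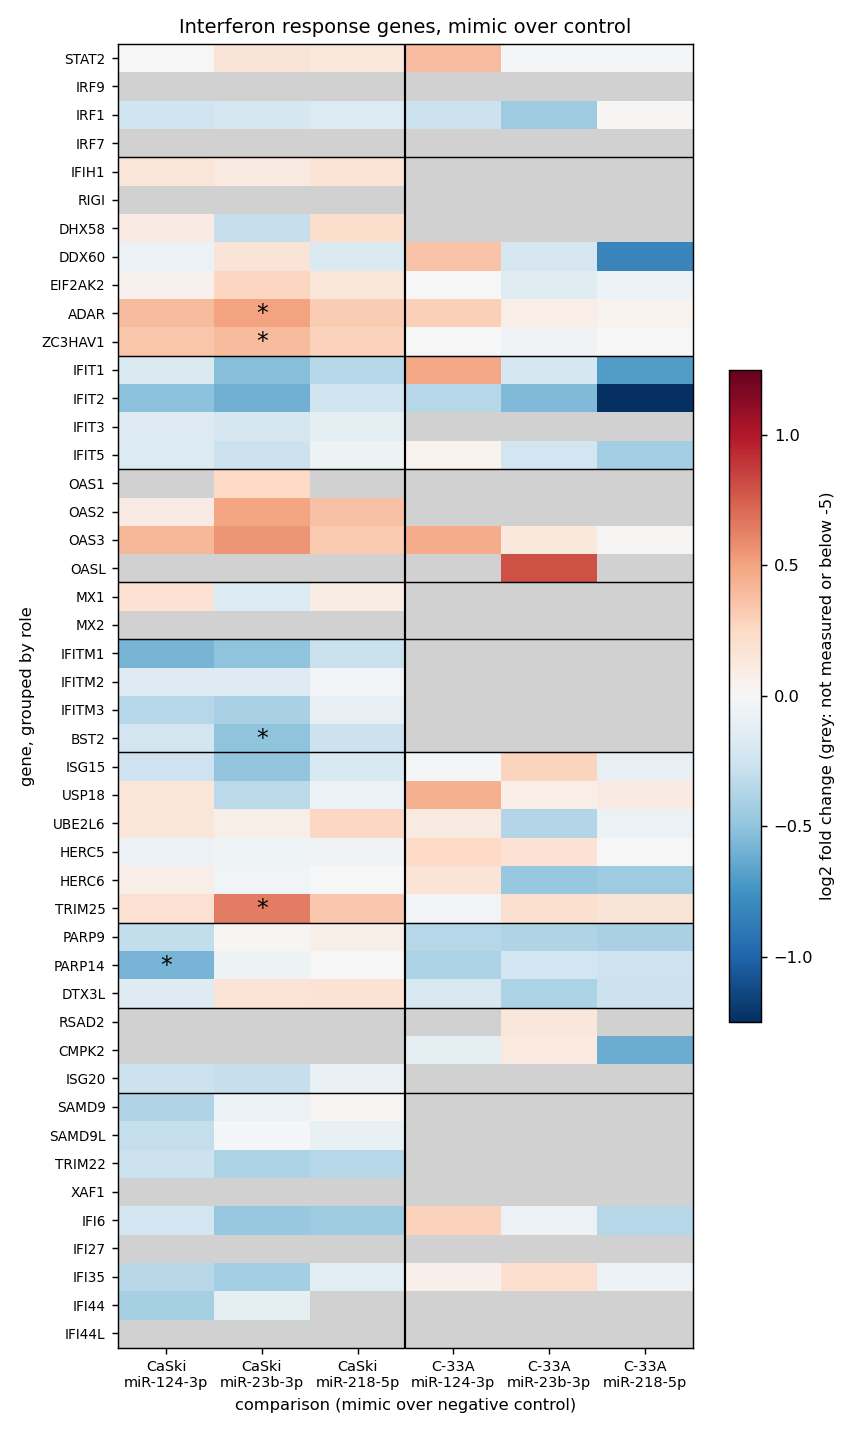
Log2 fold change of mimic over control for the 46 interferon response genes (rows, grouped by role) in the 6 comparisons (columns), blue for lower and red for higher with the mimic, grey where not measured or under -5. Stars mark the 5 values at a deposited FDR under 0.05, of which 4 are in CaSki with miR-23b-3p and 1, PARP14, in CaSki with miR-124-3p.

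The number of members at an unadjusted p under 0.05 was counted as well. In C-33A it was 3 of 22 with miR-124-3p, all higher (13.6%, against 9.57% of measured genes in either direction and 4.14% higher), 0 of 24 with miR-23b-3p (against 4.23%) and 4 of 22 with miR-218-5p, all lower (18.2%, against 5.05% in either direction and 3.61% lower). In CaSki it was 3 higher and 5 lower of 36 with miR-124-3p (22.2%, against 14.7%, of which 7.55% higher and 7.16% lower), 5 higher and 10 lower of 38 with miR-23b-3p (39.5%, against 29.7%, of which 15.7% higher and 14% lower) and 2 higher of 35 with miR-218-5p (5.71%, against 6.85% in either direction and 4.23% higher). The median log2 fold change of the members was 0.05, -0.06 and -0.09 in C-33A with miR-124-3p, with miR-23b-3p and with miR-218-5p, against 0.00, 0.01 and -0.04 over all measured genes. In CaSki it was -0.17, -0.14 and -0.05, against -0.01, 0.00 and 0.01, and without IFI27 and IRF7 it was -0.16, -0.10 and -0.04. For a single member, the 95% interval of the log2 fold change typically reached 0.48, 0.48 and 0.44 to each side in the C-33A comparisons and 0.35, 0.35 and 0.34 in the CaSki comparisons (medians over measured members).

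With miR-23b-3p in CaSki, 3 members rose (against 1.41% of all genes) and 1 fell (against 0.995%). TRIM25, a ubiquitin and ISG15 ligase that takes part in RIG-I activation, stood at 80.2 CPM in mimic cells and 51.4 CPM in control cells, levels computed from the average and fold change of the authors' deposited table. This is a rise of 55.9%, or 0.64 on the log2 scale (SE 0.135, FDR = 0.000517), in the authors' deposited table. Computed from the other CaSki comparisons, TRIM25 stood at 59.5 and 60.1 CPM in the same control cells, a range of 0.22 log2 units over the 3 comparisons. These levels were computed as if each library had the same weight in the average, and what the range comes from was not tested. ADAR, which edits adenosine to inosine in double-stranded RNA and so keeps self RNA from the sensors, stood at 291 CPM in mimic cells and 206 CPM in control cells, a rise of 0.50 (SE 0.119, FDR = 0.00358) in the authors' deposited table. ZC3HAV1, the zinc finger antiviral protein, which binds CpG-rich foreign RNA, stood at 94.7 CPM in mimic cells and 72.0 CPM in control cells, a rise of 0.40 (SE 0.12, FDR = 0.0417) in the authors' deposited table. BST2 stood at 87.2 CPM in mimic cells and 123 CPM in control cells and fell by 0.50 (SE 0.127, FDR = 0.00793) in the authors' deposited table. The risen genes are thus a ligase and a pair of RNA-binding regulators, and the fallen one a membrane effector.

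By role, the members in CaSki with miR-23b-3p split. Of the RNA sensors and RNA-binding effectors, 5 of 6 measured lay above 0 (median 0.22), with the kinase EIF2AK2 at 0.27 (p = 0.0154) and the helicase DHX58 alone below 0 at -0.29, in the authors' deposited table. All 3 measured oligoadenylate synthetases, which make the activator of RNase L, lay above 0, with OAS3 at 0.55 (SE 0.177, FDR = 0.0628), OAS2 at 0.49 and OAS1 at 0.25 in the authors' deposited table. In contrast, 4 of 4 IFIT genes lay below 0: IFIT2 at -0.60 (SE 0.189, FDR = 0.0595), IFIT1 at -0.53 (SE 0.196, FDR = 0.156), IFIT5 at -0.27 and IFIT3 at -0.21 in the authors' deposited table. None of these roles held a called member besides ADAR and ZC3HAV1. After removal of a smooth trend on transcript length and GC content, fitted over all genes, 3 of the 6 sensors and RNA-binding effectors lay above 0 (median 0.01), with EIF2AK2 at -0.01 and DDX60 at -0.02. The synthetases stayed above 0 (3 of 3, median 0.35) and the IFIT genes below it (4 of 4, median -0.52) under that setting. Without trend removal, these roles leaned the same way in CaSki with miR-124-3p and with miR-218-5p, which share the control libraries. There 5 of 6 sensors and RNA-binding effectors (medians 0.13 and 0.20) and 2 of 2 synthetases lay above 0. The IFIT genes (4 of 4, medians -0.18 and -0.18) and the membrane effectors (4 of 4) lay below it.

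All 4 membrane effectors lay below 0 as well, with IFITM3 at -0.40 (SE 0.125, FDR = 0.0515), IFITM1 at -0.51 (p = 0.0368) and IFITM2 at -0.16 beside BST2 in the authors' deposited table. The IFITM genes are close paralogs and the annotations of IFITM1 and IFITM2 overlap, so reads may be split between them. ISG15 stood at 21.7 CPM in mimic cells and 30.6 CPM in control cells, a log2 fold change of -0.50 (SE 0.153, FDR = 0.0503) just outside the threshold in the authors' deposited table. TRIM25, which is grouped with the ISG15 system here, rose by 0.64, as given above. The other parts of that system stood at -0.34 (USP18, which removes ISG15), 0.07 (UBE2L6, its conjugating enzyme), -0.05 (HERC5, its main ligase) and -0.04 (HERC6) in the authors' deposited table. Among the other effectors, each measured member besides IFI27, which cannot be read, lay below 0 and none was called. IFI6 stood at -0.48, IFI35 at -0.42 and TRIM22, a ubiquitin ligase, at -0.40 in the authors' deposited table. Of the 9 epithelial markers, 3 fell in the same comparison and 0 rose: KRT8 at -0.58 (FDR = 0.000355), KRT19 at -0.44 (FDR = 0.00536) and KRT17 at -0.38 (FDR = 0.0192) in the authors' deposited table. The other 6 stood between -0.42 (KRT18) and 0.38 (TP63), with 3 above and 3 below 0, in the authors' deposited table, and the part of these markers in the members' values was not tested.

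The members that lay above 0 in this comparison were mostly those with long transcripts. Across 36 members with a length (IFI27 and IRF7 left out), the Spearman correlation of the log2 fold change with the length of the longest coding transcript was 0.62, against 0.29 across 14779 measured genes, all in the same libraries and given as a description. The 10 members under 2000 nucleotides had a median of -0.41, against -0.14 for 4353 genes of that length, and the 14 members of 4000 or more had 0.17, against 0.15 for 5197 genes. The long members thus matched long genes at large, while the short ones lay lower than short genes at large. In CaSki with miR-218-5p and miR-124-3p the correlations were 0.48 and 0.24 over members, against 0.21 and 0.24 over all genes. In C-33A with miR-124-3p, with miR-23b-3p and with miR-218-5p they were -0.19, -0.35 and 0.04 over members, against 0.20, 0.00 and 0.09 over all genes.

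**Figure D3:**
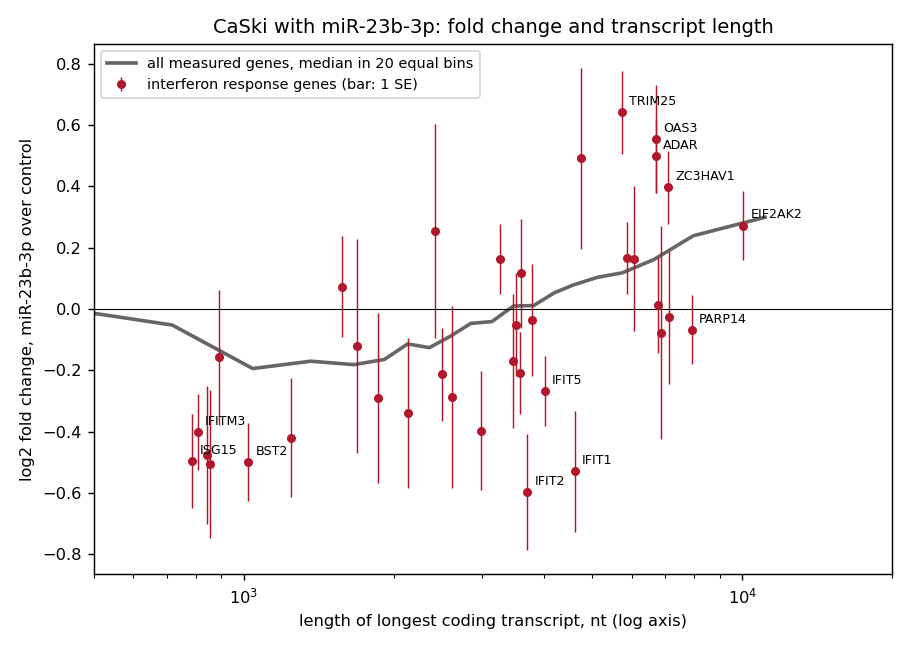
Log2 fold change of miR-23b-3p over control in CaSki (y axis, bar 1 SE) against length of the longest coding transcript in nucleotides (x axis, log scale) for 36 interferon response genes (red), with the median of all measured genes in 20 bins of equal size (grey line). The short genes ISG15, IFITM3 and BST2 and the longer IFIT1, IFIT2 and IFIT5 lie below the line, and TRIM25, OAS3 and ADAR lie above it.

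A smooth trend of fold change on length and GC content, fitted over all genes after the data were examined, changed which members were called. The adjustment was over measured genes, so these calls stand beside the 9 of 38 called under that adjustment with no trend removed. With the trend removed, 6 of 38 members were called (15.8%, against 11.8% of 14993 genes): TRIM25 at 0.48 (adjusted p = 0.00815), BST2 at -0.45 (0.00815), IFIT2 at -0.68 (0.00724), IFIT1 at -0.66 (0.0129), IFIT5 at -0.38 (0.0146) and IFITM3 at -0.40 (0.0202), by a normal test with the SE recovered from the authors' deposited table. Of the 9, ADAR (0.28, adjusted p = 0.0986), ZC3HAV1 (0.18, adjusted p = 0.347), ISG15 (-0.38, adjusted p = 0.085) and OAS3 (0.40, adjusted p = 0.119) lost their calls. IFIT5 was the gene added, and IFIT1, IFIT2 and IFITM3 were called with and without the trend. The members' median moved to -0.20 without IFI27 and IRF7, with 27 of 36 below 0, against -0.04 over all genes. IFIT1, IFIT2 and IFIT5 are the IFIT genes with the 8mer sites for miR-23b-3p printed above. In CaSki with miR-218-5p, for which they hold no site, they stood at -0.41, -0.28 and -0.09 with the trend removed. In the authors' deposited table of that comparison they stood at -0.36, -0.25 and -0.07. IRF1, the other member with an 8mer, stood at -0.24 (p = 0.0716) with the trend removed and at -0.21 (p = 0.122) in the authors' deposited table. Of the 3 measured members with a shorter site, EIF2AK2 stood at -0.01 with the trend removed and 0.27 in the authors' deposited table, PARP9 at -0.19 and 0.01, and SAMD9 at -0.34 and -0.08, in the same order of settings. None of these 4 was called under either setting.

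With miR-124-3p in CaSki, PARP14 fell, and 0.203% of all genes did. This enzyme attaches single ADP-ribose units to proteins and acts in macrophage and interferon signalling. It stood at 61.1 CPM in mimic cells and 91.1 CPM in control cells and fell by 0.58 on the log2 scale (SE 0.144, FDR = 0.0302) in the authors' deposited table. After the trend on length and GC content was removed it stood at -0.72 (adjusted p = 0.000238, normal test), the 1 member called of 36 (2.78%, against 2.11% of 14992 genes). Its neighbours on chromosome 3, PARP9 and DTX3L, which form a complex with each other, stood at -0.30 and -0.16 and were not called in the authors' deposited table. PARP14 stood at -0.39 (SE 0.207, p = 0.0571) in C-33A with miR-124-3p in the authors' deposited table, a value that did not differ from the CaSki one beyond its error (CaSki minus C-33A -0.18, SE 0.252).

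The other members with low p in that comparison were not called. ADAR stood at 0.39 (SE 0.143, p = 0.00587), ZC3HAV1 at 0.35 (SE 0.136, p = 0.0107) and OAS3 at 0.42 (SE 0.183, p = 0.023) in the authors' deposited table. Lower were IFIT2 at -0.51 (SE 0.194, p = 0.0079), SAMD9 at -0.37 (SE 0.141, p = 0.00818), IFITM3 at -0.36 (SE 0.149, p = 0.0163) and IFITM1 at -0.58 (SE 0.251, p = 0.0202) in the authors' deposited table. With an FDR of 0.46 or more each, these differences did not hold up over all genes. All 4 IFIT genes and all 4 membrane effectors lay below 0, with medians of -0.18 and -0.30. So did each measured gene among the other effectors besides IFI27, which cannot be read.

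With miR-218-5p in CaSki, 0 of 35 measured members were called, and 2 had an unadjusted p under 0.05 by edgeR's test. ADAR stood at 0.31 (SE 0.137, p = 0.0225) and ZC3HAV1 at 0.29 (SE 0.133, p = 0.0317) in the authors' deposited table. The lowest measured member besides IFI27 was IFI6, an endoplasmic reticulum protein that limits flavivirus replication, at -0.45 (p = 0.0518) in the authors' deposited table. Set side by side, TRIM25 stood at 0.20, 0.64 and 0.33 and BST2 at -0.24, -0.50 and -0.27 in CaSki with miR-124-3p, with miR-23b-3p and with miR-218-5p in the authors' deposited tables, 3 comparisons against the same control libraries.

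In C-33A with miR-218-5p, the 4 members with the lowest p were 3 IFIT genes and DDX60, all lower with the mimic and none called. IFIT2 stood at 0.888 CPM in mimic cells and 2.1 CPM in control cells, a log2 fold change of -1.24 (SE 0.372, p = 0.000856, FDR = 0.439) in the authors' deposited table. IFIT1 stood at 5.93 CPM in mimic cells and 9.6 CPM in control cells, a log2 fold change of -0.69 (SE 0.229, p = 0.00242, FDR = 0.808) in the authors' deposited table. IFIT5 stood at -0.42 (SE 0.185, p = 0.0228) and DDX60, a helicase that promotes RIG-I signalling, at -0.82 (SE 0.381, p = 0.0314) in the authors' deposited table. IFIT2 and DDX60 were near the lower limit of what was measured. DDX60 holds the miR-218-5p 8mer printed above, and the IFIT genes hold no site for that microRNA. Other members with such a site stood at -0.41 (PARP9), -0.26 (PARP14), -0.07 (EIF2AK2) and 0.01 (IRF1) in the authors' deposited table. The remaining members below 0 included CMPK2 at -0.62 (p = 0.0628) and HERC6 at -0.44 (p = 0.0573) in the authors' deposited table. In all, 16 of 22 measured members (72.7%) lay below 0, against 58.3% of measured genes. In CaSki with miR-218-5p, DDX60 stood at -0.18 (p = 0.406 by edgeR's test) in the authors' deposited table. The other members with a site stood there at -0.18 (IRF1), 0.08 (PARP9), 0.01 (PARP14) and 0.15 (EIF2AK2).

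In C-33A with miR-124-3p, the members with the lowest p lay above 0 and none was called. OAS3 stood at 0.46 (SE 0.205, p = 0.0234), IFIT1 at 0.49 (SE 0.241, p = 0.0434) and STAT2, the subunit of the interferon-activated factor that carries its activation domain, at 0.39 (SE 0.186, p = 0.0381) in the authors' deposited table. Below 0, PARP14 had the lowest p. With miR-23b-3p in C-33A, 0 of 24 measured members reached an unadjusted p under 0.05. The members with the lowest p were HERC6 at -0.47 (p = 0.0613), OASL at 0.80 (p = 0.0885), IRF1 at -0.44 (p = 0.0929) and DTX3L at -0.39 (p = 0.095) in the authors' deposited table. The members with 8mers for miR-23b-3p stood at -0.55 (IFIT2), -0.44 (IRF1), -0.24 (IFIT5) and -0.22 (IFIT1) in C-33A in the authors' deposited table, with SEs of 0.384, 0.263, 0.195 and 0.238 and none at an unadjusted p under 0.05.

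**Figure D4:**
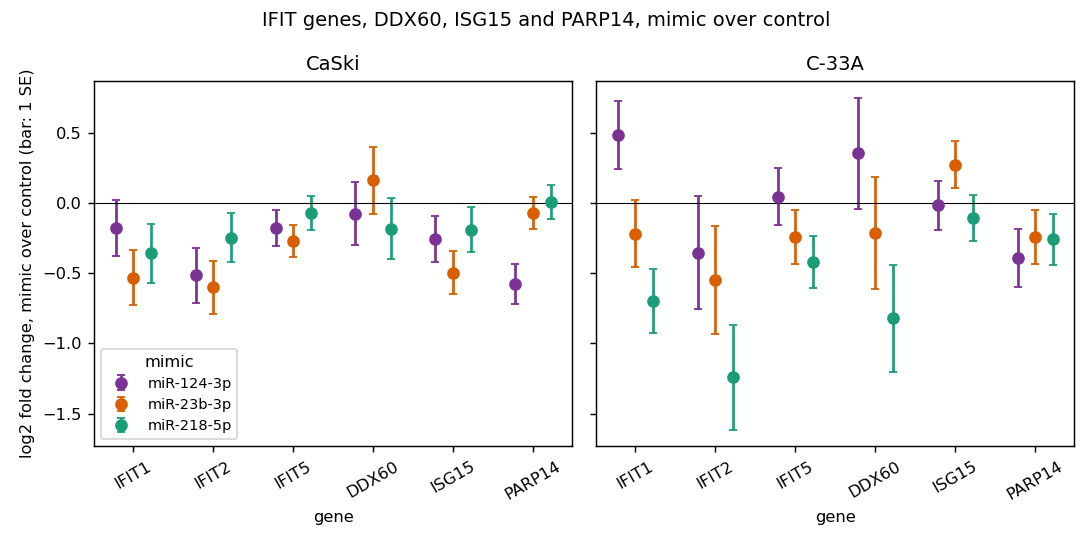
Log2 fold change of mimic over control (y axis, bar 1 SE) for IFIT1, IFIT2, IFIT5, DDX60, ISG15 and PARP14 (x axis) in CaSki (left) and C-33A (right), coloured by mimic. In C-33A, IFIT2 reached -1.24 with miR-218-5p, and ISG15 with miR-23b-3p lay at -0.50 in CaSki and at 0.28 in C-33A.

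The response of the lines was compared for the 21 members measured in both. The fold changes of a mimic in CaSki and in C-33A rest on separate libraries, and their difference was tested with the recovered SEs by a normal test, adjusted over all genes measured in both lines. With miR-23b-3p, ISG15 stood at -0.50 in CaSki and 0.28 in C-33A, a difference of -0.77 (SE 0.227, adjusted p = 0.0442), from the authors' deposited tables. It was the 1 member called of 21, against 1.7% of 12905 genes. After removal of the length and GC content trend from both tables, the difference was -0.54 (adjusted p = 0.366) and 0 members were called. Neither line's own ISG15 fold change was called at the deposited FDR, which is adjusted over all listed genes. The test between lines was adjusted over fewer genes, those measured in both lines. With p-values adjusted over measured genes alone, the ISG15 fold change was called in CaSki (adjusted p = 0.0133, F test) and not in C-33A.

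With miR-124-3p and miR-218-5p, 0 of 21 members differed between lines at an adjusted p under 0.05, against 0% of 12970 and 12902 genes. At an unadjusted p under 0.05 by the normal test there was 1 member with miR-124-3p, IFIT1 (CaSki minus C-33A -0.66, SE 0.315, against 2.51% of genes), and 1 with miR-218-5p, IFIT2 (1.00, SE 0.412, against 1.56%). With miR-23b-3p there were 6, against 15.6% of genes: ISG15, EIF2AK2 (0.43), ADAR (0.41), ZC3HAV1 (0.44), TRIM25 (0.44) and DTX3L (0.56). For TRIM25 the values were 0.64 in CaSki and 0.20 in C-33A, and for ADAR 0.50 in CaSki and 0.08 in C-33A, in the authors' deposited tables. A call in CaSki and none in C-33A is thus not a shown difference for these genes.

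Subtracting the fold changes of 2 mimics of a line largely cancels the control libraries, and gives a contrast of mimics with no estimate of error. The cancelling cannot be taken as exact. The control level of a gene, computed as if each library had the same weight, differed between the comparisons of a line, and the cause was not tested. Over the comparisons of a line, the computed control level of IFIT1 ranged by 0.12 log2 units in CaSki and 0.02 in C-33A. That of TRIM25 ranged by 0.22 in CaSki and 0.03 in C-33A. Small medians below, in CaSki above all, are to be read with these ranges. For miR-124-3p minus miR-218-5p in C-33A, IFIT1 stood 1.18 higher and DDX60 1.18 higher, and IFIT2 0.89 higher, and the sizes of these differences were at the 99.8, 99.8 and 99.0 percentile of measured genes. The median over 22 members was 0.25 and 18 lay above 0, against a median of 0.03 over all genes. The same contrast in CaSki went the other way, with a median of -0.09 over 35 members and 12 above 0, against -0.02 over all genes. For miR-124-3p minus miR-23b-3p in C-33A the median was 0.20 with 17 of 22 above 0, against -0.01, with IFIT1 0.70 higher, and in CaSki it was -0.01 with 17 of 36 above 0, against -0.02. For miR-23b-3p minus miR-218-5p in CaSki the median was -0.06 with 25 of 35 below 0, against -0.02, and the widest difference besides that of IFI27 was DHX58 at -0.51. In C-33A that median was 0.04 with 15 of 22 above 0, against 0.05. No test of these contrasts can be given without values per sample.

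The genes that produce, receive and limit interferon were examined in 6 lists of 63 genes. Of 8 interferon ligands, 0 were measured in C-33A, and in CaSki 2 were, the epithelial interferons IFNE and IFNK, with average log2 CPM values of 0.17 and 0.94 beside miR-124-3p in the authors' deposited table. IFNK stood at 0.62 (SE 0.289, p = 0.0314) in CaSki with miR-23b-3p in the authors' deposited table and was not called. Of 9 receptors and kinases, all measured in both lines, 1 fell, in CaSki with miR-124-3p (against 0.203% of all genes). This was TYK2, a kinase on the type I receptor, which fell by 0.58 (SE 0.152, FDR = 0.0468) in the authors' deposited table.

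Of 8 negative regulators, 2 rose in CaSki with miR-23b-3p (against 1.41% of all genes) and 1 with miR-124-3p (against 0.103%). All 8 were measured, and of measured genes 9.09% were called in either direction with miR-23b-3p and 1.2% with miR-124-3p. PTPN1, a phosphatase that removes phosphate from JAK2 and TYK2, rose by 0.58 (SE 0.128, FDR = 0.000996) with miR-23b-3p and by 0.55 (SE 0.143, FDR = 0.0463) with miR-124-3p in the authors' deposited tables. It stood at 0.50 in CaSki with miR-218-5p and at 0.42, 0.53 and 0.37 in C-33A with miR-124-3p, with miR-23b-3p and with miR-218-5p, none called, in the authors' deposited tables. PIAS1, a SUMO ligase that limits cytokine signalling, rose by 0.55 (SE 0.144, FDR = 0.0113) in CaSki with miR-23b-3p in the authors' deposited table. In the lists of 10 sensing relay genes, 13 interferon gamma targets and 15 antigen presentation genes, 0 were called in any of the 6 comparisons.

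The antigen presentation genes had medians of -1.17, -1.43 and -1.05 in CaSki with miR-124-3p, with miR-23b-3p and with miR-218-5p over 15 measured genes. TAP1, TAPBP, PSMB8 and HLA-E are among the genes listed under -5 described above, and B2M, the light chain of HLA class I, stood at -1.17, -1.43 and -1.05 with p-values of 0.161, 0.107 and 0.194 in the authors' deposited tables. No direction can be read for this list in CaSki.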

How the data were processed

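PolyA RNA of 23 samples in 8 groups was sequenced. The submitters' processing notes name STAR 2.7.10b, FastQC 0.73, edgeR 3.36.0, featureCounts 2.0.3 and the build GRCh38 (hg38). Each of the 6 deposited tables holds, per the file headers, the log2 fold change, F score, p-value, FDR and average log2 CPM of 61217 genes. Benjamini-Hochberg adjustment over the whole table gives back the deposited FDR. The denominator degrees of freedom, found from each deposited F score with its p-value, were 183700, 244900 and 244900 in C-33A (a spread pooled over genes) and 31.52, 38.18 and 25.72 in CaSki. Counts and depth per sample are not analysed here, so no interval that needs them is given. The sources used here do not state whether counting used strand, so overlapping genes are uncertain.

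Members were matched by symbol. The result of 1 gene of the lists is not reported here. The members and lists were chosen with earlier results of these data known. An SE was the log2 fold change divided by the normal quantile of the deposited p-value. Levels per group were computed from the average level, the fold change and the number of libraries, with each library given the same weight. Full statistics are given for called members and per comparison and direction for up to 4 members of lowest p, and other list genes are named where called or among the 2 lowest p of their list. Genes listed under -5, markers that moved and genes compared between lines or mimics were named after their values were seen. The test between lines and the trend on length and GC content (mgcv 1.9.3 in R 4.3.3, fitted to genes within 2 log2 units of 0) were tested on simulated data. Alternatives changed the threshold, the filter on low levels, the centring and the trend. Python 3.11.15, pandas 2.3.3 and scipy 1.17.1 were used.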

Additional observations from a re-analysis of the deposited data

Results flagged for a closer look

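ISG15 with miR-23b-3p was flagged because its fold change differed between the lines by a test of the difference itself. Its log2 fold change was -0.50 in CaSki and 0.28 in C-33A, a difference of -0.77 (SE 0.227, adjusted p = 0.0442, normal test over 12905 genes). The call was lost when the trend on transcript length and GC content was removed (difference -0.54, adjusted p = 0.366), a setting under which 0.206% of 12605 genes were called, against 1.7% before. In C-33A the SE rests on a spread pooled over genes, and its part in the difference was not tested.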

How the results depend on the processing

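The number of members called moved most in CaSki with miR-23b-3p. It was 4 as reported, 3 at an FDR under 0.01, 8 at an FDR under 0.10, 9 when adjusted over measured genes (log2 CPM of at least 0) and 9 with a minimum of 1. The genes added at a minimum of 0 were ISG15, IFITM3, IFIT2, OAS3 and IFIT1. After removal of the length and GC trend, a setting added after seeing the data, it was 6, adjusted over measured genes. Set against the 9 calls at a minimum of 0, IFIT5 was added, and ADAR, ZC3HAV1, ISG15 and OAS3 were lost. ZC3HAV1 also lost its call at an FDR under 0.01. In CaSki with miR-124-3p the count was 1 as reported and 0 at an FDR under 0.01. In the other 4 comparisons it was 0 under every setting run. The number of members that differed between lines with miR-23b-3p was 1 as reported, 1 with each table centred or a minimum of 1, and 0 with the trend removed. The members' median log2 fold change kept its sign under every setting run but moved by over 1.5 times in 3 comparisons. In CaSki with miR-23b-3p it was -0.14 as reported, -0.078 with a minimum log2 CPM of 1, -0.073 with a minimum of 2 and -0.21 after trend removal. For miR-218-5p in C-33A it was -0.090 as reported, -0.14 with no filter, -0.052 with the median of all genes subtracted and -0.060 after trend removal. For miR-124-3p in C-33A it was 0.05 as reported and 0.0048 with no filter. The cause was not tested. Leaving out IFI27 and IRF7, a setting added after seeing the data, moved no median by that much.

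No paired analysis was possible because the columns hold comparisons and no replicate, so neither the fit with the replicate number as a block nor the fits that leave out a replicate were run. How far a single library decides a call is thus not known. Depth per sample is unknown. In C-33A, 22 members were too low to be followed in any comparison.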

Other observations

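The genes listed under -5 in CaSki, IFI27 among them, lay together in places. Of 205 annotated genes listed so in each of the 3 CaSki tables, which share control libraries, 58 lay on chromosome 6 between 28903002 and 33418317, the region of the HLA genes, and 13 on chromosome 14 between 91779751 and 94279735 (GRCh38). The chromosome 14 genes included IFI27L1, IFI27L2 and DDX24, which stand near IFI27. DDX24, an RNA helicase, is listed at -14.25, -14.78 and -14.30 with miR-124-3p, with miR-23b-3p and with miR-218-5p in the authors' deposited tables, with p-values of 0.225, 0.3 and 0.223. Of the 210 genes, annotated or not, 205 had an average log2 CPM under 0 in each C-33A table and 130 stood at the lowest level of those tables. RPS18, TUBB and HLA-E were listed at the lowest level in at least 1 of the C-33A tables.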
